A study of Mus musculus with 6 samples.

Results

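Podocytes are the epithelial cells that cover the capillaries of the glomerulus, the filter of the kidney. Their interlocking foot processes are bridged by the slit diaphragm, a junction built around nephrin, and are held in shape by actin and by a negatively charged surface coat. Mature podocytes do not divide, so a kidney replaces lost podocytes poorly, and leakage of protein into urine is the usual sign of their injury. The genes described here are 8 genes known for their expression in podocytes, Nphs1, Podxl, Synpo, Wt1, Ptpro, Cdkn1c, Nes and Clic5. They were taken by symbol from a deposited table of 40993 genes, and all 8 were found in it. All 8 also passed the filter on low values, among 15431 genes tested.

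The kidneys came from C57BL/6 mice 2 months old, given either standard chow or chow enriched in adenine. Each diet has 3 samples, called standard 1 to 3 and adenine 1 to 3. Adenine feeding injures the tubules and interstitium of the rodent kidney through deposits of a poorly soluble adenine product. The labels give no dose or duration of the diet and do not say that each sample is a separate animal, so the p-values rest on sample-to-sample spread that may be technical. Whole kidney was sequenced, and in such bulk samples fewer cells of a type cannot be told apart from less RNA per cell.

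Levels are FPKM, fragment counts corrected for transcript length and library depth, which allow genes of different length to be compared. Every ± is an SD with n = 3 unless marked SE. The step between neighbouring low values gives an approximate depth of each library, 17.4 M to 20.15 M fragments on standard chow and 17.5 M to 22.9 M with adenine. At these depths the library with the fewest fragments per gene held about 219 fragments for Wt1 and about 4590 for Podxl, with the other 6 genes between them. Changes are log2 differences of FPKM + 1, adenine minus standard, tested with limma and Benjamini-Hochberg adjustment over all 15431 genes, and a gene is said to have risen or fallen where adjusted p was under 0.05. All tested genes together had a median change of 0.25 log2 units, a shift that scaling of the libraries by median of ratios reduced to -0.02. Changes after that scaling, called rescaled here, are therefore given beside the main ones.

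Of the 8 podocyte genes, 7 rose with adenine and 1, Clic5, lay lower in every adenine library. Nes and Synpo had the largest fold differences of mean FPKM, 2.44-fold and 2.23-fold. Podxl had the smallest among those that rose, 1.23-fold. Over all tested genes 29.7% rose and 6.84% fell. Every adenine library lay above every standard library for 7 of the 8 genes, against 44.4% of all tested genes, and below for Clic5, against 11.8%. The median change of the 8 genes was 0.79 log2 units, beside 0.25 for all tested genes. After rescaling 5 of the 8 rose (16.4% of all genes), 1 fell (15.8% of all genes), and the median of the 8 was 0.50. The 7 rises became 4 without standard 1, 4 without standard 2, 3 without standard 3 and 2 with quantile normalization.

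**Figure D1:**
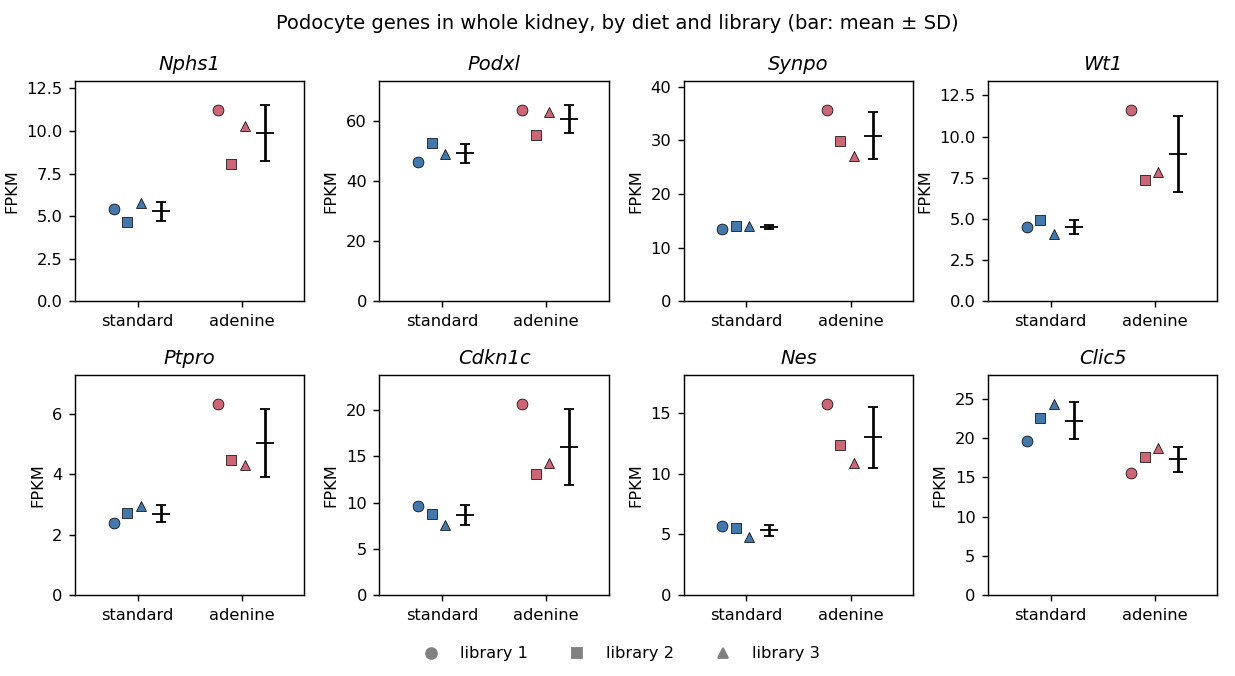
FPKM of each podocyte gene (vertical axes, linear from 0) in the 3 standard and 3 adenine libraries; each point is a library, its shape gives the library number, and the black bar is the mean ± SD. In 7 panels the adenine points lie above all standard points, and in the Clic5 panel they lie below.

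Nphs1 encodes nephrin, the transmembrane protein that spans the slit between foot processes (ENSMUSG00000006649, chromosome 7, 30458315 to 30487223, GRCm38). Standard 1 to 3 had 5.44, 4.67 and 5.76 FPKM of Nphs1, and adenine 1 to 3 had 11.2, 8.06 and 10.3 FPKM. The groups did not overlap, and adenine 2 was the lowest of its group as standard 2 was of its own. The rise from 5.29 ± 0.561 to 9.87 ± 1.63 FPKM was 0.78 ± 0.15 log2 units (SE, limma adjusted p = 0.0124). After rescaling the change was 0.50 (adjusted p = 0.0474), and with quantile normalization it was 0.35 and no longer passed (adjusted p = 0.138). On rescaled values the call was also lost whichever library was left out (limma adjusted p = 0.0557 to 0.1335). An antisense gene, Nphs1os, shares 597 exonic bases with Nphs1. Its level was 0.0955 to 0.129 FPKM on standard chow and 0.143 to 0.286 FPKM with adenine, and no source used here states that strand was used in counting. A processed pseudogene on the opposite strand, Rps12-ps4, shares 183 exonic bases with Nphs1.

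The apical surface of the podocyte carries podocalyxin, the sialylated coat protein encoded by Podxl, which is also made by vascular endothelium (ENSMUSG00000025608, chromosome 6, 31519488 to 31563981). Podxl was the most abundant of the 8 genes, at 46.4, 52.6 and 49.0 FPKM in standard 1 to 3 and 63.9, 55.4 and 63.2 FPKM in adenine 1 to 3. The gap between the groups, from standard 2 to adenine 2, was narrow beside their spread. Its rise of 0.30 ± 0.0936 log2 units only just passed (SE, limma adjusted p = 0.0487). It turned to -0.02 after rescaling (adjusted p = 0.903), and it was not called under any of the 20 alternatives run, among them sample number as a blocking term (adjusted p = 0.0842).

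Ptpro encodes GLEPP1, a receptor tyrosine phosphatase of the foot process membrane; a shorter product of the gene is made by leukocytes (ENSMUSG00000030223, chromosome 6, 137252299 to 137464629). It was the least abundant of the 8, at 2.40, 2.71 and 2.96 FPKM in standard 1 to 3 and 6.35, 4.48 and 4.32 FPKM in adenine 1 to 3. Adenine 1 stood above the other 2 adenine libraries. The change was 0.70 ± 0.166 log2 units (SE, limma adjusted p = 0.0216). The call was lost on rescaling (adjusted p = 0.0537), with quantile normalization (0.303), and without standard 1, standard 2, standard 3 or adenine 2 (0.0699, 0.0639, 0.0512 and 0.0584). The gene-level FPKM do not separate the podocyte and leukocyte products.

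Inside the foot process, Synpo encodes synaptopodin, an actin-bundling partner of alpha-actinin (ENSMUSG00000043079, chromosome 18, 60593973 to 60660142). Synpo was at 13.5, 14.0 and 14.0 FPKM in standard 1 to 3, the tightest group of any of the 8 genes relative to its mean, against 35.7, 29.9 and 27.1 FPKM in adenine 1 to 3. It rose from 13.8 ± 0.306 to 30.9 ± 4.39 FPKM, 1.096 ± 0.115 log2 units (SE, limma adjusted p = 0.00405). After rescaling the rise was 0.79 (adjusted p = 0.0050), and the call held under all 20 alternatives.

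Nes encodes nestin, an intermediate filament protein that adult podocytes keep and that some stromal and vascular cells also express (ENSMUSG00000004891, chromosome 3, 87971078 to 87980451). Nes was at 5.67, 5.51 and 4.79 FPKM in standard 1 to 3 and 15.8, 12.3 and 10.9 FPKM in adenine 1 to 3. The lowest adenine library was well above the highest standard library. The rise was 1.13 ± 0.153 log2 units (SE, limma adjusted p = 0.00598), 0.85 after rescaling, and it was called under all 20 alternatives as well.

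Clic5 encodes a chloride intracellular channel family protein that, in glomerular cells, links ezrin and podocalyxin to the actin cortex (ENSMUSG00000023959, chromosome 17, 44188572 to 44280168). Standard 1 to 3 had 19.7, 22.6 and 24.4 FPKM of Clic5, and adenine 1 to 3 had 15.6, 17.6 and 18.7 FPKM. The highest adenine library lay just under the lowest standard library. The change of -0.34 ± 0.115 log2 units missed the threshold (SE, 95% interval -0.62 to -0.07, limma adjusted p = 0.0577). It passed as a fall after rescaling (-0.64, adjusted p = 0.0233), with quantile normalization (-0.61, adjusted p = 0.0283), with sample number as a blocking term (adjusted p = 0.0312) and without adenine 3 (adjusted p = 0.0449).

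In the nucleus, Wt1 encodes a zinc finger transcription factor that maintains the podocyte programme and is also made by parietal epithelial cells (ENSMUSG00000016458, chromosome 2, 105126529 to 105173616). Wt1 was at 4.54, 4.92 and 4.08 FPKM in standard 1 to 3 and 11.6, 7.39 and 7.83 FPKM in adenine 1 to 3. Adenine 1 stood apart from the other 2, as it did for Ptpro and Cdkn1c. Wt1 rose by 0.83 ± 0.181 log2 units (SE, limma adjusted p = 0.0171) and by 0.55 after rescaling (adjusted p = 0.0300). The call ended with quantile normalization (adjusted p = 0.0684) and without standard 1 or standard 3 (adjusted p = 0.0536 and 0.0574). With a library left out, the rescaled call held only without adenine 2 or adenine 3 (limma adjusted p = 0.0492 and 0.0413).

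Cdkn1c encodes p57, the cyclin-dependent kinase inhibitor that holds mature podocytes out of the cell cycle and is an imprinted gene (ENSMUSG00000037664, chromosome 7, 143458350 to 143461050). It was at 9.65, 8.76 and 7.57 FPKM in standard 1 to 3 and 20.7, 13.0 and 14.2 FPKM in adenine 1 to 3. The rise was 0.79 ± 0.186 log2 units (SE, limma adjusted p = 0.0206) and 0.50 after rescaling (adjusted p = 0.0470). Without standard 2 or standard 3 it was not called (adjusted p = 0.0604 and 0.0680), nor with quantile normalization (0.0806). On rescaled values the call was lost whichever library was left out (limma adjusted p = 0.0549 to 0.1278). The antisense gene Gm44732 shares 625 exonic bases with Cdkn1c, and reads of the pair cannot be told apart without strand.

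**Figure D2:**
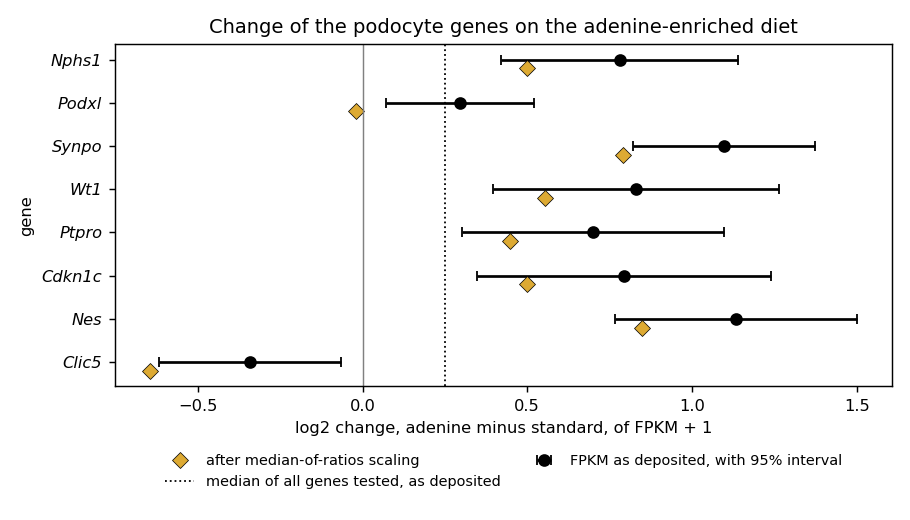
Log2 change of FPKM + 1, adenine minus standard (horizontal axis), for each podocyte gene (vertical axis); black points are the limma estimates with 95% intervals, yellow diamonds the changes after rescaling, and the dotted line the median of all genes tested. Rescaling moves every gene to the left, Podxl to -0.02 and Clic5 to -0.64.

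Scaling of a library cancels in the ratio of 2 genes measured in it, so each gene was set against Nphs1 in the same library. Clic5 was 3.62 to 4.83 times the Nphs1 level on standard chow and 1.39 to 2.19 times with adenine, a shift of -1.25 log2 units. Podxl was 8.51 to 11.3 times the Nphs1 level on standard chow and 5.68 to 6.88 times with adenine, a shift of -0.59. In these 2 ratios of 7 every adenine library lay below every standard library, and in none of the 7 did every adenine library lie above. Over the 15430 other tested genes, 50.0% had a ratio to Nphs1 that lay below in the same way and 7.55% one that lay above, so a separation downward from Nphs1 was common and is not particular to Podxl and Clic5. Both reached exact permutation p = 0.10, the smallest that 3 samples against 3 allow (two-sided, 0.35 after Benjamini-Hochberg adjustment over the 7 ratios). With equal sample numbers paired, both had exact p = 0.25, the smallest that 3 pairs allow.

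The other ratios overlapped between the diets. Ptpro was 0.442 to 0.580 of the Nphs1 level on standard chow and 0.419 to 0.565 with adenine. Wt1 was 0.708 to 1.05 times Nphs1 and then 0.760 to 1.03 times, and Cdkn1c 1.31 to 1.88 times and then 1.38 to 1.84 times. The Synpo and Nes ratios had mean differences of 0.26 and 0.38 log2 units, each with exact permutation p = 0.20. All 7 ratios share the Nphs1 values, so they are not independent of each other.

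**Figure D3:**
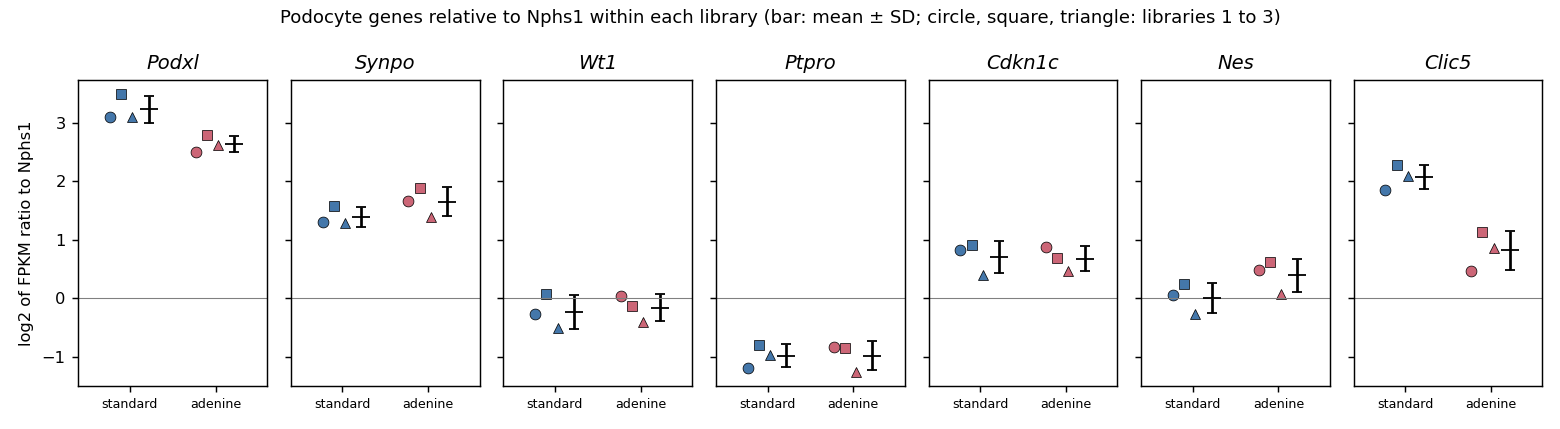
Log2 of the FPKM of each gene divided by that of Nphs1 in the same library (vertical axis, shared), for standard and adenine libraries 1 to 3; the black bar is the mean ± SD. The Podxl and Clic5 points separate by diet, downward with adenine, and the groups of the other 5 genes overlap.

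Upstream sequence is shown for Ptpro, which rose, and Clic5, which did not rise with the others. RefSeq promoter windows (GRCm38.p6) were found for 4 of the 8 genes, Nes, Ptpro, Nphs1 and Clic5. The Nphs1 window lies wholly within an exon of a longer annotated transcript, and 15 bases of the Nes window lie in an exon, so neither is printed. The Ptpro window is chr6:137252049-137252298 and the Clic5 window chr17:44188322-44188571. Both are the 250 bases before the start of transcription, on the plus strand, written 5′ to 3′, and capitals mark E-boxes, the CANNTG element bound by basic helix-loop-helix factors such as Tcf21.
Ptpro: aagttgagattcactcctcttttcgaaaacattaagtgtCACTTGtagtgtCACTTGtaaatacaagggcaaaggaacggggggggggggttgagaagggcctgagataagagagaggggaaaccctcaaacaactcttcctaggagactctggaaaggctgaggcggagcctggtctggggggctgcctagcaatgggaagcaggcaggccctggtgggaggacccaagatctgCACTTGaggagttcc
Clic5: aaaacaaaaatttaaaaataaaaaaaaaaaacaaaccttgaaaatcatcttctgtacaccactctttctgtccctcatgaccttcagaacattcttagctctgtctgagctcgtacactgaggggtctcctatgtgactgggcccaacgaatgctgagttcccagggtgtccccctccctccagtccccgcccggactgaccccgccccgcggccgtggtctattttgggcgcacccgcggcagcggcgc

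The Ptpro window held 3 E-boxes, all reading CACTTG, and the Clic5 window held none. An E-box is common: 66.2% of the 32851 RefSeq windows of this length held at least 1 on either strand, and 11.6% held CACTTG. Windows with 3 or more CACTTG on either strand numbered 13, or 0.0396%; this count was chosen after the sequence was seen. Neither the WT1 and EGR type motif GCGTGGGNG nor its GC-rich form GCGGGGGCG was in any of the 4 windows of 300 bases, on either strand. These were in 1.90% and 2.91% of all RefSeq windows of 300 bases. Purines made up 60.8% of the Ptpro window and 45.2% of the Clic5 window (percentiles 94.7 and 19.7 of all windows of 250 bases).

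Other genes of the slit diaphragm and of its adaptors were mostly higher with adenine. Of 11 in the list, 10 were tested, 8 rose and none fell, beside 29.7% and 6.84% of all tested genes. The median change was 0.75 log2 units. After rescaling it was 0.45, and 5 rose, beside 16.4% of all tested genes. Kirrel, which encodes Neph1, the partner of nephrin in the slit, rose from 4.95 ± 0.81 to 14.0 ± 3.42 FPKM (limma adjusted p = 0.00719). The giant cadherin Fat1 rose from 16.8 ± 2.2 to 42.9 ± 4.05 FPKM, the adaptor Nck2 from 8.94 ± 0.43 to 16.1 ± 1.68 FPKM and the phospholipase Plce1 from 1.48 ± 0.15 to 3.65 ± 0.738 FPKM. Fat1 and Nck2 are also expressed well beyond the glomerulus. Cd2ap and Magi2 were tested and did not pass (adjusted p = 0.0696 and 0.332), though Cd2ap passed with sample number as a blocking term (adjusted p = 0.0171), and the channel gene Trpc6, at 0.118 to 0.533 FPKM, was below the filter. The 8 rises became 5 without adenine 2 and 4 with quantile normalization.

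Kirrel2, a Neph relative whose gene starts 625 bases from Nphs1 on the opposite strand, was below the filter. It was at 0.0288 to 0.0344 FPKM on standard chow and 0.0863 to 0.106 FPKM with adenine. In a 2 kb transcript 3 fragments correspond to 0.0862 FPKM at the lowest depth, so no fold is given.

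Among 11 genes of the podocyte cytoskeleton, of adhesion and of podocalyxin linkage, 7 rose and none fell, beside 29.7% and 6.84% of all tested genes. The list median was 0.59 log2 units. The formin Inf2 rose from 2.00 ± 0.369 to 7.02 ± 2.01 FPKM and the motor Myo1e from 10.5 ± 1.16 to 21.1 ± 4.09 FPKM (adjusted p by limma 0.00762 and 0.00912). The integrin chain Itgb1 and its kinase partner Ilk rose 1.64-fold and 1.53-fold. On standard chow Actn4 and Ezr of this list averaged 122.3 and 120.4 FPKM and Inf2 2.00 FPKM, beside 5.29 FPKM for Nphs1. Which cells made the transcripts of this list cannot be read from whole-kidney values. The rises are therefore not shown to be in podocytes. After rescaling 2 of the 11 rose, Inf2 and Myo1e, and Arhgap24 fell, with a list median of 0.28. These shares were near or below the 16.4% that rose and 15.8% that fell among all tested genes. The 7 rises became 4 without each of standard 1, 2 and 3, and 2 without adenine 2. Without adenine 2 the call of Ilk ended (adjusted p = 0.0557), and that of Itgb1 ended without standard 2, standard 3 or adenine 2 (adjusted p = 0.0518, 0.0545 and 0.0608).

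Of 7 podocyte transcription factors listed, Foxc2 was not analysed here and Foxd1 was below the filter. Of the 5 tested, 2 rose and none fell, beside 29.7% and 6.84% of all tested genes. The list median was 0.34 log2 units, beside 0.25 for all tested genes. It was 0.22 after rescaling and -0.04 with quantile normalization. Tcf21, also a gene of stromal cells, rose from 28.1 ± 6.13 to 61.8 ± 17.6 FPKM (limma adjusted p = 0.0148), a call that ended without standard 2 or standard 3 (adjusted p = 0.0525 and 0.0526). Foxc1, Lmx1b and Dach1 did not pass, with changes of 0.30, 0.34 and 0.32 log2 units.

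Of 12 other podocyte-enriched genes 4 rose and 2 fell, beside 29.7% and 6.84% of all tested genes. The share that rose was thus near that of all tested genes. The median was 0.39 log2 units, beside 0.25 for all tested genes. Mean levels on standard chow ran from 2.09 FPKM for Thsd7a to 146 FPKM for Vegfa, beside 5.29 FPKM for Nphs1. Whole-kidney values do not show which cells made these transcripts. The semaphorin Sema3g rose from 16.1 ± 1.24 to 31.4 ± 5.38 FPKM and the claudin Cldn5, shared with endothelium, from 7.15 ± 0.208 to 13.3 ± 2.13 FPKM (adjusted p by limma 0.00712 and 0.0080). Thsd7a, a podocyte surface protein, rose 1.89-fold, a call lost on rescaling (adjusted p = 0.073), with quantile normalization, or without adenine 1 or any of the standard libraries (adjusted p = 0.0614 to 0.0833). Vegfa, the endothelial growth factor that podocytes and tubules both make, fell from 146 ± 6.26 FPKM to 110 ± 15 FPKM, a change of -0.41 log2 units (adjusted p = 0.0395, 0.0599 with sample number as a blocking term, and 0.0670 to 0.108 without each library other than adenine 3). The other fall was Ildr2 (-0.45 log2 units, adjusted p = 0.0433, 0.0689 with the block). The number of falls was 0 with the block and without any of standard 1, 2, 3, adenine 1 or adenine 2, and 1 without adenine 3. The rises became 2 without standard 1, standard 2 or adenine 1. After rescaling 2 rose and 3 fell, beside 16.4% and 15.8% of all tested genes.

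Of 8 genes of the glomerular basement membrane, 5 rose and none fell, beside 29.7% and 6.84% of all tested genes. The median was 0.83 log2 units, and all 5 rises were laminin chains, agrin or nidogen. Nid1 rose from 15.7 ± 0.948 to 41.7 ± 7.26 FPKM, Lama5 from 15.0 ± 1.74 to 33.9 ± 4.67 FPKM, Agrn from 39.6 ± 9.4 to 102 ± 22.1 FPKM and Lamc1 from 11.2 ± 2.47 to 21.5 ± 2.34 FPKM, and the fifth was Lamb2 (limma adjusted p = 0.00405, 0.0047, 0.00915, 0.0127 and 0.0185). The collagen IV chains of the mature filter, Col4a3, Col4a4 and Col4a5, had differences of -0.13, -0.10 and 0.29 log2 units and did not pass. After rescaling Col4a3 and Col4a4 fell (-0.45 and -0.41, adjusted p = 0.0250 and 0.0278), as did 15.8% of all tested genes. The 5 rises became 3 without adenine 2, where Lamc1 was not called (adjusted p = 0.0515). Laminin, agrin and nidogen are also part of tubular and vascular basement membranes. On standard chow Col4a3, Col4a4 and Col4a5 averaged 61.9, 46.4 and 19.7 FPKM, beside 5.29 FPKM for Nphs1. Whole-kidney values do not show which cells made these collagen transcripts either.

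Relatives of the 8 genes were listed to see whether the families moved alike. Of 18 relatives 15 were tested, 8 rose and none fell, beside 29.7% and 6.84% of all tested genes. The median was 0.56 log2 units. After rescaling 7 rose, beside 16.4% of all tested genes, and the median was 0.25. Clic1 rose from 51.4 ± 2.32 to 96.1 ± 14.5 FPKM (adjusted p by limma 0.00628) and Clic4 also rose (adjusted p = 0.0164, 0.75 after rescaling), while Clic5 was lower in every adenine library. Clic3 was not called (adjusted p = 0.0625). Vim, the vimentin gene whose filament nestin joins, rose from 27 ± 4.83 to 127 ± 49.8 FPKM. The p57 relative Cdkn1a, which encodes p21, rose (1.47 log2 units, adjusted p = 0.011), and Cdkn1b, which encodes p27, was not called (0.20 log2 units, adjusted p = 0.276). Kirrel3 went from 0.249 to 0.356 FPKM on standard chow to 1.53 to 2.84 FPKM with adenine, and Podxl2 from 0.48 to 1.65 FPKM to 3.55 to 5.66 FPKM. Kirrel3 passed the filter only through its adenine values, so only a rise could be called for it. Desmin (Des) and Egr1 were the other rises.

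**Figure D4:**
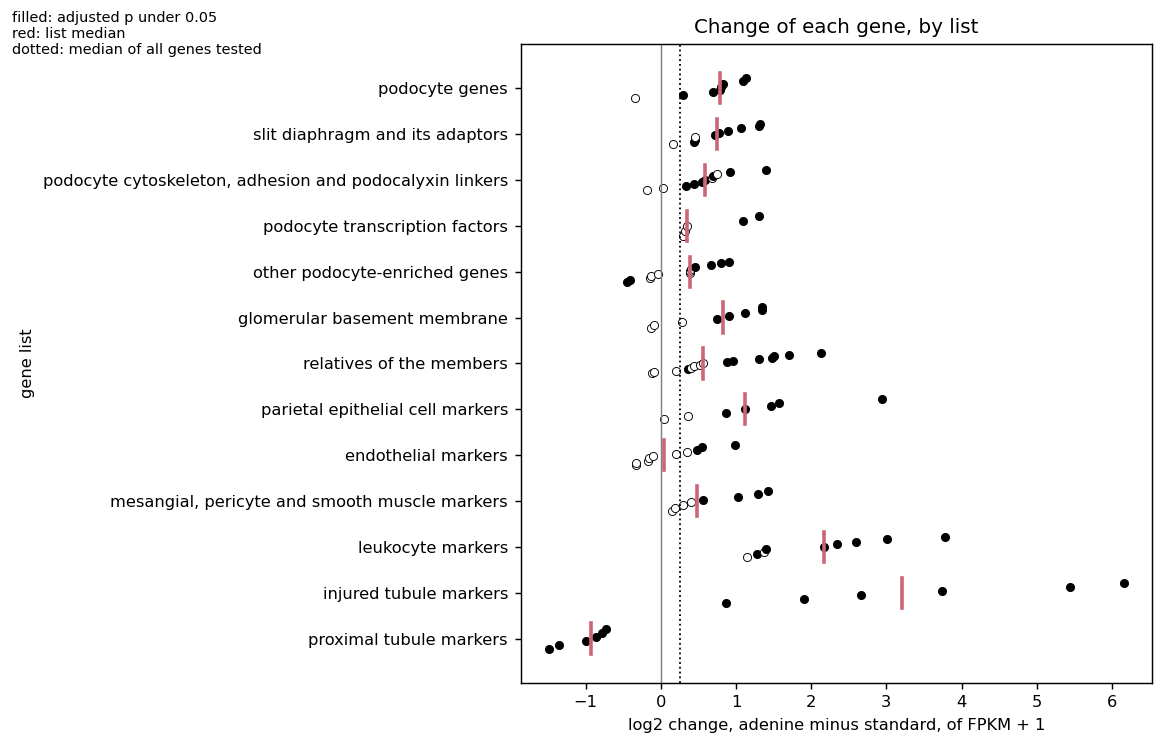
Log2 change of FPKM + 1, adenine minus standard (horizontal axis), of every tested gene in each list (vertical axis); filled points had adjusted p under 0.05, red bars are list medians, and the dotted line is the median of all genes tested. The podocyte genes center at 0.79, endothelial markers at 0.05, leukocyte markers at 2.17 and proximal tubule markers at -0.93.

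Markers of other cells also differed between the diets, some upward and some downward, and their part in these results was not tested. Among all tested genes 29.7% rose and 6.84% fell. All 6 proximal tubule markers fell, with a summed level of 1677 to 2279 FPKM on standard chow and 703.5 to 1259 FPKM with adenine; Slc34a1 and Aqp1 were the most abundant. Of 9 leukocyte markers 7 rose, with sums of 78.1 to 102 and then 604.6 to 1421 FPKM, led by Lyz2 and Csf1r. As deposited, adenine 1 had the highest leukocyte sum, and in it the 7 podocyte genes that rose were highest and Clic5 was lowest. Adenine 1 also had the largest median-of-ratios factor, 1.20, against 1.12 and 1.06 for adenine 2 and 3. Part of this ranking may therefore be one of library scale, and a link to leukocytes was not tested. All 6 injured tubule markers rose, with sums of 211 to 248 and then 617 to 1223 FPKM, Cd24a and Lcn2 being the most abundant. Krt20 and Sox9, counted among them, averaged 0.266 and 0.141 FPKM on standard chow, and the leukocyte marker Cd3e 0.485. These genes passed the 0.5 FPKM filter, a mean over all 6 libraries, only through their adenine values. For them only a rise could be called.

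Markers of other glomerular cells were not uniform, and their counts stand beside the 29.7% of all tested genes that rose and the 6.84% that fell. Of 7 parietal epithelial markers 5 rose, with sums of 242 to 289 and then 426 to 601 FPKM, Cd9 and Krt8 being the most abundant; several of these are also expressed by injured tubules. Of 10 endothelial markers 3 rose, Plat, Eng and Tie1, with sums of 265 to 340 and then 340 to 410 FPKM, and none fell, a share of rises near the 29.7% of all tested genes. After rescaling 1 endothelial marker rose, Plat, and 5 fell, Ehd3, Emcn, Kdr, Flt1 and Tek, beside 16.4% and 15.8% of all tested genes. Ehd3, a marker of glomerular endothelium, had a change of -0.11 log2 units as deposited (limma adjusted p = 0.449) and of -0.41 after rescaling (adjusted p = 0.0476). Of 8 mesangial, pericyte and smooth muscle markers 4 rose, with sums of 184 to 199 and then 294 to 394 FPKM, led by Tagln and Acta2. The other rises were Pdgfrb and Cspg4 (limma adjusted p = 0.00628 and 0.0195). The mesangial integrin Itga8 was not called (0.15 log2 units, adjusted p = 0.403), nor were Gata3, Rgs5 and Ren1.

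Among 10483 genes averaging 5 FPKM or more, the profiles nearest to that of Nphs1 over the 6 libraries were those of Fbxl14, Rtkn, Itpkc, Gdf10 and Lime1. Nearness is the root mean square difference of centred log2 levels, which was 0.0835 for Fbxl14 and 0.0965 for Lime1. Cdkn1c ranked 186, Wt1 207, Synpo 671, Nes 1516, Podxl 1990 and Clic5 8413. Ptpro, below 5 FPKM on average, was at a difference of 0.154. This describes 6 libraries only, and genes that differ between the diets by a similar amount come out as near.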

How the data were processed

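Per the labels' protocols, total RNA of whole kidneys was made into libraries with a TruSeq RNA kit and read as 100 bp pairs on a HiSeq2500. Tools listed in the submitters' processing notes are TopHat, Cufflinks 2.1.1 and bcl2fastq 2.0, and the builds are mm10 and GRCm38. Which annotation was counted is not stated in the sources used. The values are FPKM as deposited by the authors, per the file headers. A second table, whose 6 value columns name samples outside the sample list, was not used.

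From these, log2(FPKM + 1) was fitted by diet with limma 3.58.1 in R 4.3.3 (intensity trend, two-sided) for the 15431 genes averaging 0.5 FPKM or more, with Benjamini-Hochberg adjustment over all of them. This scale understates changes of low genes. The code was tested on simulated data. No count test was run, since whole fragments could not be recovered for nearly all genes: 68.3% to 74.8% of low values lay within 0.15 of a whole number. Depths assume a nominal fragment of 200 bp and cover counting error only. Ratios to Nphs1 were tested by exact permutation with scipy 1.17.1 in Python 3.11.15.

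The 8 genes, the 6 podocyte and glomerular lists and the 6 marker lists were chosen with earlier results of these data known. Of 121 listed genes 120 were found, and Adgre1 was matched by its Ensembl identifier. Named are the 8 genes, up to 4 called genes per list by smallest p, the 2 most abundant of each marker list, and the 5 profiles nearest Nphs1; other names were chosen after their values were seen. Samples share numbers across diets, and deviations from group means correlated at 0.258, 0.143 and 0.181 between equal numbers and -0.187 to 0.0376 otherwise, so equal numbers may pair the samples; this rests on the correlations alone, as the labels are silent on it. The reported tests are unpaired, and blocked values stand beside the calls they alter. Alternatives were the pseudocount, the filter, the scaling, the variance trend, the block and the omission of each library. Omission on rescaled values was chosen after seeing the data. Promoter windows are from RefSeq (GRCm38.p6). A few listed genes enter the counts but are not reported here by name.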

Additional observations from a re-analysis of the deposited data

How the results depend on the processing

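Synpo and Nes kept their direction and their call under all 20 alternatives. The number of podocyte genes that rose was 2 with quantile normalization, and 1 fell with median-of-ratios scaling, with quantile normalization, with the replicate block and with the block on rescaled values. Leaving out 1 library at a time, as deposited or rescaled, gave 2 to 6 rises (2, 2, 2, 2, 3 and 3 when rescaled) and 0 to 1 falls. Each fit that leaves out a library compares 3 samples with 2. Podxl reversed to -0.018 on rescaled values, with or without the replicate block, and to -0.076, -0.0033 and -0.089 on rescaled values without standard 1, standard 2 and adenine 3; the cause was not tested.

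Over all genes, rises numbered 2526 with median-of-ratios scaling, 2140 with quantile normalization and 2575 with the block on rescaled values, and falls 2433, 2237 and 2701. Leaving out a library gave 1888 to 5452 rises and 231 to 1594 falls, with adenine 2 and adenine 3 at the ends of both ranges. In the 6 other lists together, 34 rises became 22 to 40 without a library as deposited (22 without adenine 2), and when rescaled as well they were 20, 16, 18, 18, 12 and 24. The 2 falls became 0 with no filter, 0 with the replicate block, 1 with no variance trend, and 6 on rescaled values with or without the block. Without a library they were 0 to 1 as deposited, and 2, 1, 5, 3, 1 and 10 when rescaled. The replicate block ended the calls of Podxl, Vegfa and Ildr2 among the genes named with values, and added Clic5, Cd2ap, Pdlim2, Itga3, Cd34 and Ptprj.

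Relative to the geometric mean of 4 genes, Ptpro and Cdkn1c shifted by 0.064 and 0.036 log2 units, where relative to Nphs1 they had been near 0 and negative. Without a library, the shifts relative to Nphs1 were -0.063 to 0.223 for Wt1, -0.102 to 0.139 for Ptpro and -0.186 to 0.079 for Cdkn1c. Depth limits Kirrel2, which lay near the level of 3 fragments.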
